A study of Mus musculus with 90 samples.

Results

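The duodenum of cycling female mice was compared between estrus and diestrus. The comparison took the 6 duodenum libraries out of the 90 libraries of the series, chosen by their labels alone, with 3 libraries per phase. The series covers 15 tissues of females labelled as C57BL/6 (C57BL/6J in the study's methods) and as 10 weeks old, an age that the study's methods give differently. The study read phases from vaginal smears, with serum estrogen and progesterone as a further aid. The labels name no engineered allele and no agent for either group, and the groups differ in the labelled cycle phase. The numbers 1 to 3 name a library within its phase and pair nothing across phases, and values below are always given in that order. The study describes the replicates as separate mice, and the p-values measure the spread between these 3 and 3 libraries.

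The duodenum is the first stretch of the small intestine. Its villi are lined by absorptive enterocytes, which carry digestive enzymes on their brush border, and by mucus-secreting goblet cells. New epithelium is made by dividing cells in the crypts, where Paneth cells secrete antimicrobial peptides, while scattered enteroendocrine cells release gut hormones and lymphoid follicles hold B cells. Estrogen is high around estrus and progesterone around diestrus, and both act mainly through nuclear receptors.

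Expression was taken as FPKM (fragments per kilobase of transcript and library size, a level corrected for gene length). The 12410 genes whose mean level across the 6 libraries was 1 FPKM or more were tested with limma on log2(FPKM + 1). On this scale, fold changes of genes with low levels are understated. Called genes had a Benjamini-Hochberg adjusted p of 0.05 or less and a log2 fold change of 1 or more, up or down. "Higher" and "lower" below mean that all 3 estrus libraries lay above or below all 3 diestrus libraries, unless a test is named.

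The libraries carried the markers of duodenum. Gip, an incretin hormone of the upper gut, was at 27.4, 48.1 and 72.0 FPKM in estrus and at 81.6, 63.3 and 69.6 FPKM in diestrus, against a stomach median of 0. Of 12 genes listed for the distal small intestine, 7 passed the filter, and the list summed to 83.7, 357 and 363 FPKM in estrus and to 199, 170 and 201 FPKM in diestrus. The mucin Muc3, the guanylin gene Guca2a and Cyp27a1 made up most of these sums. The ileal genes Fgf15, at 0 in all 6 libraries, and Fabp6, at most 0.77 FPKM, were at or near 0.

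The library labelled estrus replicate 1 stood apart before any comparison. Its Pearson r on the log2 scale with the other 5 libraries was 0.853 to 0.874, while the 3 diestrus libraries reached 0.980 to 0.984 among themselves. Genes listed for gastric epithelium and Brunner glands, the mucous glands of the duodenum, made up 13.3% of its summed FPKM and at most 0.0103% in the other 5. Trefoil factor Tff1 stood at 29618 FPKM there and between 0.13 and 20.7 FPKM elsewhere in the duodenum, with a stomach median of 21492 FPKM. Gkn2, a gastrokine of the stomach surface, stood at 15012 FPKM there and at most 2.96 FPKM in the other 5. The parietal cell pump gene Atp4a was at 0.13 FPKM in the same library, inside the duodenum range of 0.04 to 0.30 FPKM. Smooth muscle genes summed to 4627 FPKM in it and to 678 to 1467 FPKM in the others, and B cell genes to 1200 FPKM against 72.0 to 225 FPKM.

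Estrus replicate 2 stood apart in a different way. It correlated with the diestrus libraries at r of 0.915 to 0.943, below estrus replicate 3 at 0.964 to 0.979. A total of 574 genes lay more than 2-fold below all other libraries in replicate 2 (on FPKM + 1), against 5 genes in estrus replicate 3. The median SD between replicates was 0.395 log2 units in estrus and 0.145 in diestrus. Many of the leading results, but not all, are therefore given also without estrus replicate 1.

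**Figure D1:**
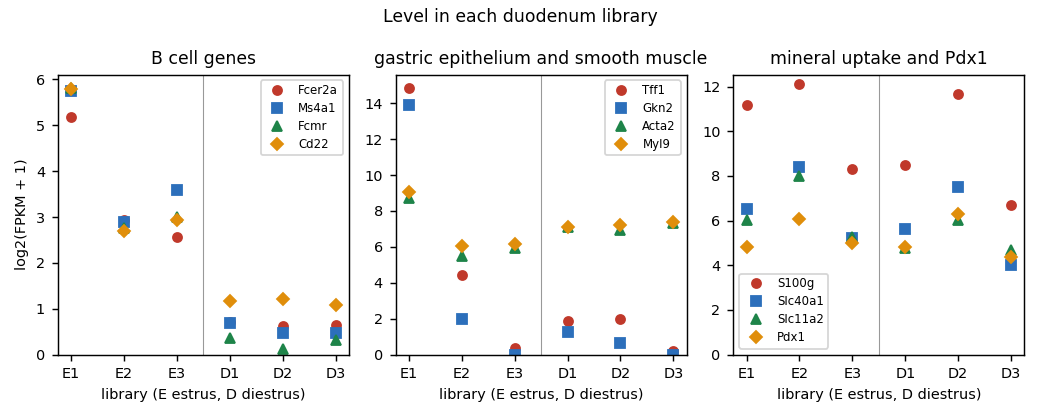
Level of 12 genes in each duodenum library as log2(FPKM + 1), with E for estrus and D for diestrus and the replicate number. B cell genes are higher in all 3 estrus libraries, gastric Tff1 and Gkn2 and the smooth muscle genes Acta2 and Myl9 peak in estrus replicate 1, and S100g, Slc40a1, Slc11a2 and Pdx1 vary among libraries of both phases.

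No gene was called in either direction, which is 0% of 12410 genes by limma. The smallest adjusted p was 0.109, for Fkbp5. At an unadjusted p under 0.05 there were 284 genes with higher levels in estrus (2.29%) and 1393 with lower levels (11.2%). By non-overlap alone, 560 genes were higher (4.51%) and 2742 lower (22.1%). The exact permutation test of 3 against 3 libraries cannot give a p below 0.1 for a single gene. The median log2 fold change over all genes was -0.16, and it was -0.03 once the libraries were scaled to equal upper quartiles, where 558 genes were higher and 851 lower at an unadjusted p under 0.05. With 1 library left out, the share with lower levels at an unadjusted p under 0.05 was 28.5%, 8.33% and 12.8% when estrus replicate 1, 2 or 3 was missing, and 2.31%, 4.83% and 5.21% when diestrus replicate 1, 2 or 3 was. The share with higher levels was 5.82%, 3.14% and 3.56% for the former and 0.879%, 1.69% and 1.04% for the latter, in the same order. List medians below are on the log2 scale and read against the -0.16 of all genes. List counts with 1 library left out read against the shares of all genes without that library, as given here.

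Without estrus replicate 1, 10 of 12071 genes were called, all with higher levels in estrus (0.0828%), and none with lower levels, where 3437 had an unadjusted p under 0.05. The called genes included the B cell genes Ms4a1, Fcmr, Fcer2a and Cd22, the co-chaperone Fkbp5, the kinase Pdk4, the mucin Muc3 and the polyol enzyme Sord. Muc3 held 41.8, 273 and 224 FPKM in estrus and 70.4, 83.1 and 72.2 FPKM in diestrus. Its level in estrus replicate 1 was thus the lowest of all 6.

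**Figure D2:**
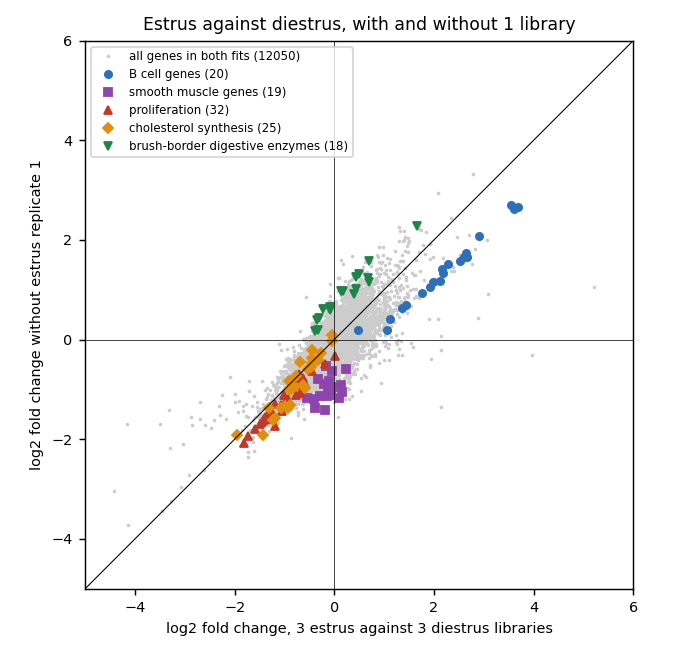
Log2 fold change of estrus against diestrus for each gene, from all 6 libraries on the horizontal axis and without estrus replicate 1 on the vertical axis, with 5 gene lists coloured. B cell genes stay above 0 on both axes, proliferation and cholesterol synthesis genes lie mostly below 0 on both, and smooth muscle genes and brush-border enzymes shift when the library is left out.

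Fkbp5, Sgk1, Tsc22d3 and Rasd1, which are known to respond to glucocorticoids, were higher in estrus. They were picked for their change or after their values were seen, and stand for no list. Fkbp5, which encodes a co-chaperone of steroid receptors, was at 18.4, 23.4 and 22.9 FPKM in estrus and at 4.29, 3.31 and 2.84 FPKM in diestrus. The groups did not overlap and left a wide gap between the lowest estrus and the highest diestrus level. The log2 fold change was 2.34 (SE 0.20, adjusted p = 0.109 by limma) and 2.44 (SE 0.19, adjusted p = 0.034) without estrus replicate 1. Leaving out any 1 library kept it between 2.23 and 2.46.

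Sgk1, a kinase that raises epithelial sodium transport, was at 43.1, 141 and 137 FPKM in estrus and at 12.5, 23.1 and 7.23 FPKM in diestrus. Estrus replicate 1 was the lowest of the estrus group and still above every diestrus library. The log2 fold change of Sgk1 was 2.78 (SE 0.56, adjusted p = 0.37 by limma), or 3.33 without estrus replicate 1. Tsc22d3, which encodes the glucocorticoid-induced leucine zipper, was at 45.1, 48.3 and 67.4 against 18.4, 25.3 and 21.5 FPKM, a log2 fold change of 1.25 (SE 0.21). Rasd1, a dexamethasone-induced small GTPase, was at 2.1, 2.6 and 2.27 against 0.54, 0.58 and 0.94 FPKM, a log2 fold change of 0.98. The receptor gene itself, Nr3c1, was a little lower in estrus, at 15.7, 18.5 and 21.1 against 25.8, 22.7 and 24.5 FPKM.

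**Figure D3:**
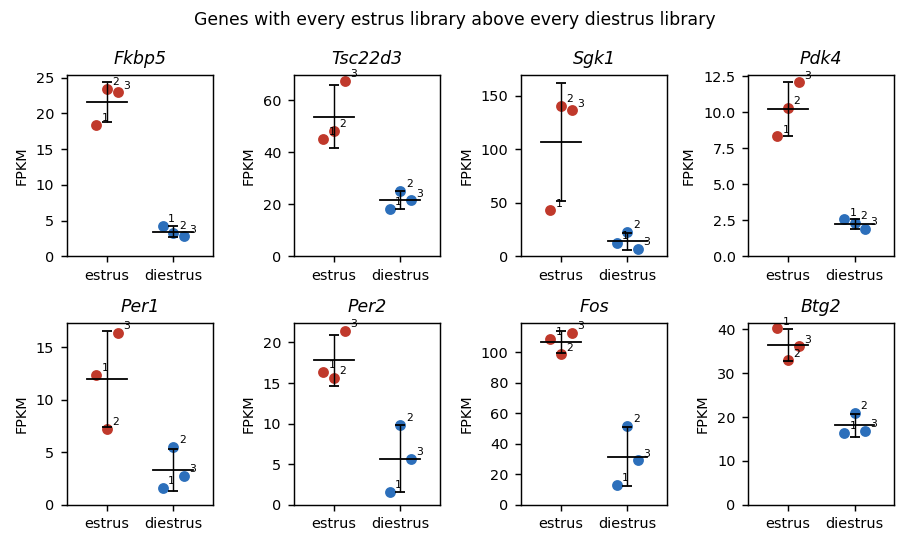
FPKM of 8 genes in each duodenum library, with points numbered by replicate, a line at the mean of the 3 libraries and bars for 1 SD. Every estrus library lies above every diestrus library in all 8 panels, and the diestrus groups of Per2 and Fos spread most relative to their means.

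Over the list of 24 heat shock and stress genes, 21 were tested, of which 8 had an unadjusted p under 0.05 with higher levels and 2 with lower levels in estrus. The background for these counts is 2.29% and 11.2% of all genes. Without estrus replicate 1 they were 6 and 5, against 5.82% and 28.5% of all genes. The list median of 0.23 ranged from -0.031 to 0.36 with 1 library left out. The higher genes included 3 of the stress-hormone genes above, Per1, the cell-cycle inhibitor Cdkn1a and the inducible chaperone Hspa1b. The counts are thus not separate from the genes picked above. Cdkn1a was at 163, 194 and 166 against 92.3, 115 and 124 FPKM, a log2 fold change of 0.66. Hspa1b was at 11.8, 9.58 and 5.18 against 1.06, 3.07 and 2.95 FPKM, a log2 fold change of 1.55. The mitochondrial chaperone Hspd1 lay on the other side, at 61.2, 29.7 and 116 against 169, 180 and 159 FPKM, with a log2 fold change of -1.49.

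Among fuel and sterol genes, Pdk4, which blocks pyruvate entry into the citric acid cycle, was at 8.34, 10.3 and 12.1 FPKM in estrus and at 2.59, 2.32 and 1.91 FPKM in diestrus. Its log2 fold change was 1.77 (SE 0.20, adjusted p = 0.36 by limma) and 1.90 (adjusted p = 0.047) without estrus replicate 1. Abca1, the pump that exports cholesterol to lipoproteins, was at 3.45, 3.82 and 4.48 against 0.85, 0.91 and 1.43 FPKM. Cyp27a1, which makes 27-hydroxycholesterol, was at 14.3, 34.9 and 40.5 against 13.3, 10.3 and 13.7 FPKM. The groups did not overlap for either gene, with log2 fold changes of 1.26 for Abca1 and 1.09 for Cyp27a1. For Cyp27a1, estrus replicate 1 sat next to the diestrus values. The genes named here were picked for their change or level and stand for no list. Of 20 tested ketogenesis and fatty acid oxidation genes, 1 was higher and 5 were lower without overlap. Among 27 lipid absorption genes 1 was higher and 0 lower, and among 8 bile acid genes 1 was higher and 1 lower. The background is 4.51% and 22.1% of all genes.

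Cholesterol synthesis genes were lower in estrus. All 25 listed genes were tested, and 11 had an unadjusted p under 0.05 with lower levels, 0 with higher levels. By non-overlap, 17 of 25 were lower, against 22.1% of all genes, and the median log2 fold change was -0.76. Without estrus replicate 1 the count at an unadjusted p under 0.05 was 17 and the median -0.91, against 28.5% and -0.26 for all genes in that comparison. The count was 5, 7 and 6 without diestrus replicate 1, 2 and 3, against 2.31%, 4.83% and 5.21% of all genes. Without estrus replicate 2 it was 11, against 8.33% of all genes, and the median was weaker at -0.49. With estrus replicate 3 as the only estrus library the median was -0.50.

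Dhcr7, which catalyses the last step to cholesterol, was at 21.2, 20.2 and 32.0 FPKM in estrus and at 51.0, 41.0 and 46.1 FPKM in diestrus, without overlap. Mvk, mevalonate kinase, was at 11.4, 8.01 and 9.57 against 22.4, 15.5 and 18.8 FPKM. The log2 fold changes were -0.91 for Dhcr7 and -0.90 for Mvk, with SEs of 0.21 and 0.20.

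For the squalene enzymes the estrus libraries were less alike. Fdps, farnesyl diphosphate synthase, was at 61.2, 16 and 44.7 against 92.7, 81.0 and 80.8 FPKM, and Sqle, squalene epoxidase, at 17.4, 2.65 and 11.1 against 27.1, 22.1 and 23.7 FPKM. Estrus replicate 2 was the lowest library for both, with log2 fold changes of -1.23 for Fdps and -1.43 for Sqle. Msmo1, a sterol methyl oxidase, overlapped between phases at 51.5, 45.8 and 59.1 against 51.9, 52.8 and 55.8 FPKM. Outside the list, the fatty acid desaturase Fads2 was at 8.24, 1.89 and 26.5 against 70.3, 44.3 and 50.6 FPKM, a log2 fold change of -2.61.

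Genes of dividing crypt cells were lower in estrus as well. Of 32 proliferation genes, all tested, 18 had an unadjusted p under 0.05 with lower levels and 0 with higher levels, against 11.2% and 2.29% of all genes. By non-overlap 25 of 32 were lower, with a median log2 fold change of -1.06. The count at an unadjusted p under 0.05 was 28 without estrus replicate 1 (28.5% of all genes), with a median of -1.30, and 18 without estrus replicate 2, with a median of -0.55. It was 1, 5 and 12 without diestrus replicate 1, 2 and 3, with medians of -0.97, -1.09 and -1.14.

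Ube2c, an enzyme of the mitotic ubiquitin ligase, was at 62.6, 20.7 and 79.3 FPKM in estrus and at 151, 126 and 106 FPKM in diestrus. Cdc20, which activates that ligase, was at 8.68, 1.16 and 14.2 against 32.5, 19.2 and 19.5 FPKM. Top2a, the topoisomerase of dividing cells, was at 16.6, 5.12 and 21.4 against 40.7, 35.3 and 28.7 FPKM. All 3 genes were lowest in estrus replicate 2, and their log2 fold changes were -1.41 for Ube2c, -1.82 for Cdc20 and -1.41 for Top2a. In bulk tissue, fewer cells of a type and less RNA per cell cannot be told apart.

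The promoters of these lists are shown because most of their members lay on the same side. RefSeq windows (GRCm38.p6) from 250 bases before to 50 after a start existed for 28 of 32 proliferation genes and 17 of 25 cholesterol genes. The CCAAT box (CCAAT, either strand) was in 20 of those 28 genes (71.4%) and in 16 of those 17 (94.1%), against 41.1% of 27025 genes with a window. The cell cycle homology region (TTTGAA, either strand) was in 10 of 28 (35.7%) against 20.2% of all genes. A sterol regulatory element written as TCACNCCAC was in 1 of 17 cholesterol genes, against 1.44% of all genes. A gene with several windows had several chances, and a match is a description of letters, not of a bound site. The 100 bases before the start follow, 5′ to 3′ on the gene's strand, with CCAAT boxes and, for the mitotic genes, the homology region in capitals.
Ube2c (chr2:164769829-164769928, plus strand): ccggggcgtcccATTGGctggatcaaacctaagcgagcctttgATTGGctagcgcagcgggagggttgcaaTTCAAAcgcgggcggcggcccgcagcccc
Cdc20 (chr4:118437344-118437443, minus strand): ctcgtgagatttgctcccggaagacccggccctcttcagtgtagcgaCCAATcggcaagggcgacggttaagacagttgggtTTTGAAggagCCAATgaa
Top2a (chr11:99024190-99024289, minus strand): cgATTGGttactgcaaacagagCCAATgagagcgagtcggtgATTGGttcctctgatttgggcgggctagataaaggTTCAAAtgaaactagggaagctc
Mvd (chr8:122443423-122443522, minus strand): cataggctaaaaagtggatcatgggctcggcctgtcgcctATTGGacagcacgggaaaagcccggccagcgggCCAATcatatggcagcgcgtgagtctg
Mvk (chr5:114444169-114444268, plus strand): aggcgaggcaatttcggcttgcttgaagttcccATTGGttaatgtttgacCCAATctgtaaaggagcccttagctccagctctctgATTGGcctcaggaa

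Each of the 5 stretches held at least 2 CCAAT boxes, and the homology region began 29, 18 and 23 bases before the start in Ube2c, Cdc20 and Top2a. Only stretches that hold the marked motifs were printed, so their presence there is no result. Mvd, which encodes mevalonate diphosphate decarboxylase, was at 11.7, 3.11 and 6.95 against 18.1, 15.5 and 14.9 FPKM, a log2 fold change of -1.20.

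Of 16 listed crypt stem cell genes 15 were tested, of which 7 had an unadjusted p under 0.05 with lower levels and 0 with higher levels, against 11.2% and 2.29% of all genes. Olfm4, a marker of crypt base columnar cells, was at 22.1, 4.28 and 112 FPKM in estrus and at 339, 175 and 209 FPKM in diestrus. The estrus libraries themselves spread widely, and the log2 fold change of -3.27 carried an SE of 1.02 (adjusted p = 0.37 by limma). Without estrus replicate 1 it was -3.25 (SE 1.17). Axin2, a Wnt target, was at 5.43, 8.73 and 8.74 against 18.9, 13.2 and 15.0 FPKM, a log2 fold change of -0.96. The stem cell receptor Lgr5 overlapped, at 0.54, 0.68 and 2.23 against 4.07, 2.21 and 2.08 FPKM. The count of listed genes at an unadjusted p under 0.05 was 11 when estrus replicate 1 was left out (28.5% of all genes) and 7 when estrus replicate 2 was. Leaving out diestrus replicate 1 or 2 gave 3 and 4 genes.

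**Figure D4:**
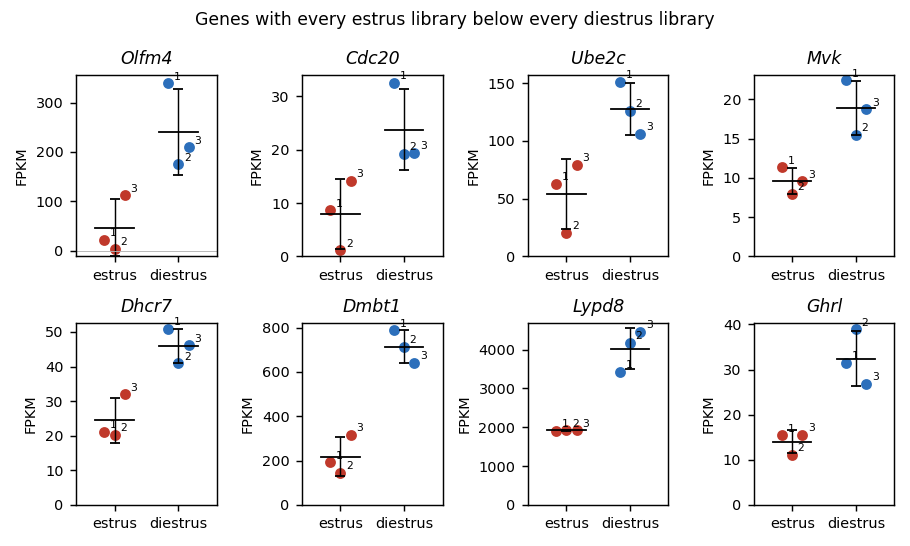
FPKM of 8 genes in each duodenum library, with points numbered by replicate, a line at the mean of the 3 libraries and bars for 1 SD. Every estrus library lies below every diestrus library, with estrus replicate 3 nearest to diestrus for Olfm4, Cdc20, Ube2c, Dhcr7 and Dmbt1.

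Of 16 goblet cell genes, 2 had an unadjusted p under 0.05 with lower levels, against 11.2% of all genes, and 1 was lower without overlap, against 22.1%. As a list they were thus near the background. Single secreted products lay lower in estrus. Lypd8, an epithelial protein that keeps bacteria off the mucosa, was at 1913, 1926 and 1919 FPKM in estrus and at 3431, 4181 and 4467 FPKM in diestrus. The estrus libraries were nearly equal while the diestrus libraries spread more, and the log2 fold change was -1.06 (SE 0.32). Dmbt1, a mucosal scavenger protein, was at 191, 144 and 316 against 789, 714 and 642 FPKM, a log2 fold change of -1.79. Spink4, a goblet cell peptide, was at 165, 181 and 292 against 460, 500 and 436 FPKM, a log2 fold change of -1.17. The goblet cell gene Zg16 and the mucin Muc13 overlapped, Zg16 at 1133, 1836 and 3113 against 1896, 1977 and 2459 FPKM.

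Paneth cell genes varied widely between libraries of both phases. Of 30 tested Paneth and antimicrobial genes, 6 had an unadjusted p under 0.05 with lower levels, against 11.2% of all genes, and 0 with higher levels in estrus. Only 4 of 30 were lower without overlap, against 22.1%. The count at an unadjusted p under 0.05 was 16 lower without diestrus replicate 3 (5.21% of all genes) and 13 without estrus replicate 3 (12.8%). It was 4 without estrus replicate 1, a share below the 28.5% of all genes. Without diestrus replicate 2 it was 4 (4.83%), and without diestrus replicate 1 it was 2 (2.31%). The list median of -1.18 moved to -0.28 with estrus replicate 3 as the only estrus library. Lyz1, the Paneth cell lysozyme, was at 116, 99.5 and 701 against 937, 2023 and 193 FPKM. Diestrus replicate 3 thus lay near the lower estrus libraries. The alpha-defensin Defa34 was at 1.65, 0.63 and 6.38 against 34.7, 39.6 and 12.4 FPKM, a log2 fold change of -3.08 (SE 0.65). Defensin genes are near-identical copies, and reads may be split between them, so single members are uncertain. The oxidase factor Duoxa2 was at 6.06, 2.09 and 1.84 against 12.0, 7.45 and 7.51 FPKM, and Nos2, inducible nitric oxide synthase, at 1.40, 3.58 and 2.67 against 5.54, 5.06 and 7.99 FPKM.

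Of 31 enteroendocrine genes 23 were tested, and 7 had an unadjusted p under 0.05 with lower levels, against 11.2% of all genes, and 0 with higher levels, with a median log2 fold change of -0.63. The count was 3 to 4 without any 1 diestrus library (2.31% to 5.21% of all genes) and 3 without estrus replicate 2 (8.33%). It was 9 of 20 without estrus replicate 1, against 28.5% of all genes. Ghrl, the ghrelin gene, was at 15.4, 11.1 and 15.5 FPKM in estrus and at 31.5, 39.0 and 26.8 FPKM in diestrus. The groups did not overlap, and the log2 fold change was -1.15 (SE 0.21, adjusted p = 0.37 by limma), or -1.23 without estrus replicate 1. Cck, cholecystokinin, was at 14.3, 27.2 and 42.1 against 59.4, 42.4 and 48.8 FPKM, where estrus replicate 3 reached the edge of the diestrus group. Chgb, a granule protein, was at 9.71, 9.56 and 18.1 against 35.5, 32.8 and 22.2 FPKM.

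The endocrine progenitor factor Neurog3 was at 0.19, 0.35 and 1.63 against 2.18, 2.34 and 2.29 FPKM. Log2 fold changes were -0.94 for Cck, -1.24 for Chgb and -1.02 for Neurog3. Without estrus replicate 1 they were -0.54, -1.11 and -0.79. Other hormones overlapped. Secretin (Sct) was at 12.1, 30.0 and 28.1 against 23.8, 15.1 and 25.7 FPKM, and somatostatin (Sst) at 16.6, 35.4 and 60.1 against 67.2, 54.8 and 67.9 FPKM. Proglucagon (Gcg) was at 0.4, 1.2 and 6.15 against 13.3, 4.79 and 11.3 FPKM. Gastrin (Gast) was at 29.6 FPKM in estrus replicate 1 and listed at 0 in the other 5 libraries.

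B cell genes were higher in estrus. Of 22 listed and tested genes, 16 had an unadjusted p under 0.05 with higher levels and 0 with lower levels, against 2.29% and 11.2% of all genes. By non-overlap 17 were higher, against 4.51%. The filter favours these counts, since members such as Ms4a1 and Fcmr passed it only through the estrus libraries. The median log2 fold change was 2.15. Without estrus replicate 1 it was 1.38, and 16 of 20 tested genes had an unadjusted p under 0.05. With estrus replicate 3 as the only estrus library, it was 1.51.

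Ms4a1, which encodes CD20, was at 53.0, 6.40 and 11.1 FPKM in estrus and at 0.60, 0.39 and 0.38 FPKM in diestrus. Estrus replicate 1 was highest, and replicates 2 and 3 were still well above every diestrus library. The log2 fold change was 3.54 (SE 0.69, adjusted p = 0.37 by limma) and, without estrus replicate 1, 2.70 (adjusted p = 0.047).

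The IgM receptor gene Fcmr was at 55.6, 5.82 and 7.05 against 0.29, 0.08 and 0.24 FPKM, and the inhibitory receptor Cd22 at 54.2, 5.43 and 6.68 against 1.23, 1.31 and 1.12 FPKM. The low-affinity IgE receptor Fcer2a was at 35.4, 6.64 and 4.87 against 0.64, 0.54 and 0.56 FPKM. Fitted log2 fold changes were 3.60 for Fcmr, 2.65 for Cd22 and 2.90 for Fcer2a. Without estrus replicate 1 they were smaller, at 2.63, 1.66 and 2.08. In contrast Cd79a, an antigen receptor subunit also kept by plasma cells, overlapped at 233, 32.6 and 52.8 against 16.2, 32.9 and 17.8 FPKM. Of 11 tested plasma cell genes, 0 were higher and 2 lower at an unadjusted p under 0.05, and 0 were lower without any 1 diestrus library.

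Of 23 listed germinal centre, M cell and follicle stroma genes 21 were tested, but 15 without estrus replicate 1, so the others passed the filter through that library. With all libraries 10 had an unadjusted p under 0.05 with higher levels and 0 with lower levels, against 2.29% and 11.2% of all genes, a count that the filter favours. It was 7 of 15 without estrus replicate 1 (5.82% of all genes), 6 of 21 without estrus replicate 3 and 4 to 5 of 21 without any 1 diestrus library. Cxcl13, the chemokine that draws B cells into follicles, was at 113, 7.73 and 20.3 FPKM in estrus and at 4.31, 2.69 and 2.00 FPKM in diestrus, a log2 fold change of 2.83, or 1.81 without estrus replicate 1. Ccl19, a chemokine of T cell zones, was at 10.4, 4.80 and 3.06 against 0.58, 0 and 0 FPKM. Clu, clusterin, listed here for follicular dendritic cells, was at 534, 25.2 and 57.7 against 11.3, 16.1 and 11.2 FPKM. Its log2 fold change of 2.77 fell to 1.52 without estrus replicate 1. In stomach Clu was at 1482, 1659 and 794 against 1360, 2618 and 1849 FPKM. The source of its level in estrus replicate 1, which carried gastric genes, was not tested.

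Ccr7, the chemokine receptor that guides lymphocytes to lymph nodes, was at 7.52, 2.24 and 1.54 FPKM in estrus. In diestrus it was at 0.28, 0.58 and 0.47 FPKM. The log2 fold change of Ccr7 was 1.52, or 0.996 without estrus replicate 1. Of 26 tested T cell and intraepithelial lymphocyte genes, 6 had an unadjusted p under 0.05 with higher levels, against 2.29% of all genes, and 0 with lower levels, with 3 without diestrus replicate 1 and 4 without diestrus replicate 3. The granzyme gene Gzma of intraepithelial lymphocytes overlapped at 44.3, 176 and 95.6 against 93.5, 96.8 and 87.8 FPKM. Among MHC class II genes, the B cell member H2-DMb2 was at 83.9, 11.2 and 16.7 against 3.75, 4.43 and 2.36 FPKM, whereas Cd74 overlapped at 1707, 2374 and 2046 against 2111, 1946 and 1478 FPKM. Follicle and B cell genes moved together across libraries, and the part of follicle content in these values was not tested.

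**Figure D5:**
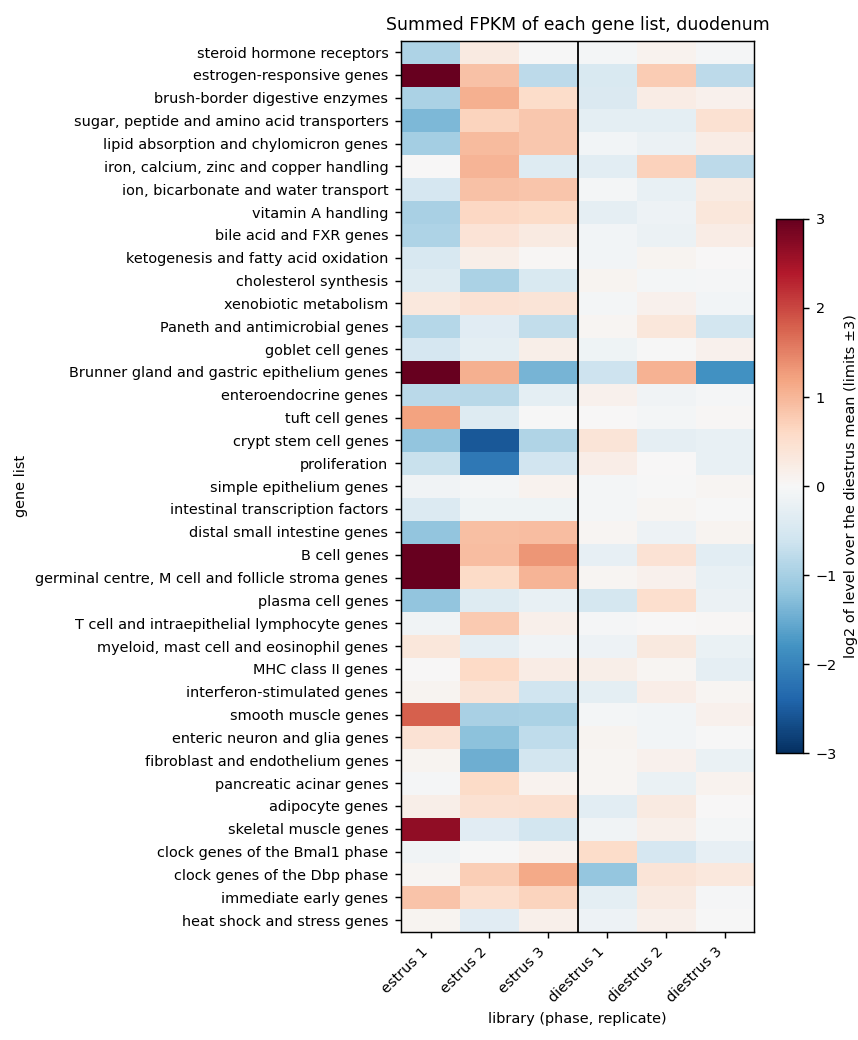
Summed FPKM of each of 39 gene lists in each duodenum library, as log2 of its ratio to the mean of the 3 diestrus libraries, with colours limited to 3 log2 units either way. B cell and follicle lists are above the diestrus mean in all 3 estrus libraries, crypt stem cell and proliferation lists are below it, and the gastric list is far above it in estrus replicate 1.

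Of 13 tested clock genes of the Dbp phase, 5 had an unadjusted p under 0.05 with higher levels in estrus, against 2.29% of all genes, and 0 with lower levels. The groups did not overlap in 5 of 13, against 4.51%, with a median log2 fold change of 0.85. Per1 was at 12.4, 7.25 and 16.4 against 1.59, 5.50 and 2.74 FPKM, and Per2 at 16.4, 15.7 and 21.4 against 1.59, 9.87 and 5.64 FPKM. Their log2 fold changes were 1.64 for Per1 and 1.71 for Per2. Hlf, a transcription factor of this phase, was at 2.49, 3.57 and 6.03 against 0.29, 1.10 and 1.48 FPKM, and Cry2, a clock repressor, at 6.21, 5.32 and 7.40 against 2.18, 3.74 and 3.34 FPKM.

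Dbp itself was at 11.2, 20.5 and 47.7 FPKM in estrus and at 0.52, 20.1 and 17.5 FPKM in diestrus, so the low value belongs to diestrus replicate 1 alone. Arntl, which encodes Bmal1 and peaks in antiphase, was at 6.78, 3.38 and 3.48 against 23.2, 4.45 and 8.49 FPKM. Nfil3, a repressor of the same phase, was at 5.44, 2.77 and 2.09 against 20.8, 2.09 and 4.35 FPKM. Both were highest in diestrus replicate 1. Without that library the median of the Dbp-phase list was 0.55, and 4 of 13 genes had an unadjusted p under 0.05. The part of collection time in these values was not tested.

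Promoters of 2 of these clock genes and of Sgk1 are shown for the elements that clock factors and the glucocorticoid receptor are known to bind. The E-box (CACGTG, a palindrome) was in 4 of the 11 Dbp-phase genes with a RefSeq window (36.4%) against 8.09% of all genes, and the D-box (TTATGNAA, either strand) in 2 of 11 against 3.99%. A glucocorticoid response element, searched in the palindromic form that leaves 5 of its 13 letters free, was in 1 of 20 stress genes with a window, against 0.537% of all genes. That gene was Sgk1, at 1 of its several starts, and no match was found in the windows of Fkbp5. Only stretches that hold the marked elements were printed. Capitals mark the E-box and D-box in Per1, the E-box in Tef and the response element in Sgk1, in the 200, 150 and 200 bases before the start.
Per1 (chr11:69098749-69098948, plus strand): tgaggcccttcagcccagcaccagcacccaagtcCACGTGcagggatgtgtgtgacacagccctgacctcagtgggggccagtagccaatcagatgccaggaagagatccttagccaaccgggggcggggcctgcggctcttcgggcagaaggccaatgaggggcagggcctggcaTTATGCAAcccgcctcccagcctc
Tef (chr15:81802523-81802672, plus strand): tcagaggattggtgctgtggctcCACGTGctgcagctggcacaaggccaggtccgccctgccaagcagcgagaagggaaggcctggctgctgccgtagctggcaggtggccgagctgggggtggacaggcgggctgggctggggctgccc
Sgk1 (chr10:21993690-21993889, plus strand): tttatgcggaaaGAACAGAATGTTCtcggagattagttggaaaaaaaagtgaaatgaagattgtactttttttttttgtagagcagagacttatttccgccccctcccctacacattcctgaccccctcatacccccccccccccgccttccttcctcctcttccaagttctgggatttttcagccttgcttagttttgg

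Tef, another D-box binding factor, was at 18.0, 28.0 and 36.7 against 2.59, 22.5 and 15.2 FPKM, and its groups overlapped.

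Of 22 tested immediate early genes, 8 had an unadjusted p under 0.05 with higher levels in estrus and 0 with lower levels, against 2.29% and 11.2% of all genes. Fos was at 109, 98.6 and 113 FPKM in estrus and at 13.3, 51.9 and 29.1 FPKM in diestrus, a log2 fold change of 1.93 (SE 0.44). Btg2, an antiproliferative factor, was at 40.3, 33.0 and 36.1 against 16.4, 21.0 and 16.9 FPKM, a log2 fold change of 0.97 (SE 0.17). Klf6 was at 57.6, 59.9 and 59.3 against 37.1, 39.2 and 39.9 FPKM, with little spread in either phase, and Zfp36, which destabilises cytokine mRNAs, at 157, 195 and 208 against 82.1, 131 and 125 FPKM. Egr1 overlapped, at 23.7, 2.62 and 7.19 against 3.95, 7.93 and 4.41 FPKM. The count was 4 of 22 without diestrus replicate 1 (0.879% of all genes) and 5 of 22 without estrus replicate 3 (3.56%). Without estrus replicate 1, 7 of 21 had higher and 1 had lower levels, against 5.82% and 28.5% of all genes. The list median of 0.73 was 0.59 in that comparison.

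Of 22 transcription factors of the intestinal epithelium, 6 had an unadjusted p under 0.05 with lower levels and 1 with higher levels, against 11.2% and 2.29% of all genes. Their median log2 fold change of -0.21 was close to that of all genes. The lower count was 9 without estrus replicate 1 (28.5% of all genes) and 3 without estrus replicate 2. It was 1, 4 and 1 when diestrus replicate 1, 2 or 3 was left out. The gut identity factor Cdx1 was at 21.1, 30.0 and 62.8 against 83.8, 66.1 and 72.2 FPKM, and Hnf4a, a factor of enterocyte genes, at 77.0, 130 and 173 against 201, 205 and 199 FPKM. Estrus replicate 1 was lowest for both. Nr5a2, a crypt nuclear receptor, was at 2.14, 2.32 and 5.99 against 8.97, 7.28 and 8.63 FPKM, and Klf5, a crypt factor, at 55.2, 61.1 and 76.3 against 105, 82.3 and 104 FPKM. Klf4, a factor of differentiated villus cells, lay on the other side, at 252, 165 and 132 against 54.0, 111 and 67.5 FPKM. Log2 fold changes were -1.08 for Cdx1, -0.74 for Hnf4a, -1.15 for Nr5a2, -0.60 for Klf5 and 1.24 for Klf4. They were -0.75, -0.42, -0.94, -0.50 and 0.99 without estrus replicate 1, in the same order. Klf4 was highest in estrus replicate 1, and in stomach it was at 180, 163 and 286 against 208, 150 and 168 FPKM. The source of its level in estrus replicate 1, which carried gastric genes, was not tested.

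With all 6 libraries, absorptive gene lists did not separate the phases, but they shifted without estrus replicate 1. None of 18 brush-border enzyme genes had an unadjusted p under 0.05 by limma or groups without overlap, and none was called. Lct, lactase, was at 47.8, 258 and 274 against 127, 55.2 and 191 FPKM, and Apoa1, an apolipoprotein of chylomicrons, at 2450, 11148 and 8775 against 4768, 4015 and 4693 FPKM. For both genes, estrus replicate 1 was the lowest library and replicates 2 and 3 the highest. Without estrus replicate 1, 8 of 18 brush-border genes and 15 of 27 lipid absorption genes had higher levels at an unadjusted p under 0.05. So had 5 of 17 sugar, peptide and amino acid transporter genes, with 1 lower. The share of all genes with higher levels was 5.82% in that comparison. Medians of these lists were 0.97, 0.56 and 0.67, against -0.26 for all genes. Smooth muscle genes shifted in the same comparison, to 19 of 19 with lower levels at an unadjusted p under 0.05, against 28.5% of all genes, from 0 of 19 with all libraries. Acta2 was at 413, 44.4 and 61.3 against 135, 120 and 157 FPKM.

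Mineral uptake genes of the upper duodenum varied across both phases. S100g, the calcium carrier calbindin-D9k, was at 2296, 4509 and 319 FPKM in estrus and at 355, 3231 and 103 FPKM in diestrus. Slc40a1, the iron exporter ferroportin, was at 89.5, 336 and 35.8 against 48.7, 179 and 15.2 FPKM. Slc11a2, the iron importer of the brush border, was at 63.7, 253 and 37.2 against 26.0, 63.9 and 24.5 FPKM. The same 3 libraries, estrus replicates 1 and 2 and diestrus replicate 2, were high for all 3 genes. Pdx1, a factor of the proximal duodenum, was at 27.0, 67.1 and 31.3 against 27.3, 77.5 and 19.7 FPKM, high in estrus replicate 2 and diestrus replicate 2.

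Steroid receptor levels were low for the sex hormones. Esr1 was at 0.16 to 0.20 FPKM in the 6 libraries, against a median of 60.9 FPKM in the uterus of the series, and Pgr at 0.07 to 0.14 FPKM against 43.1. Esr2 was at most 0.20 FPKM. These 3 genes were below the filter and not tested. Of the 5 receptor genes tested, Pgrmc2, a membrane progesterone receptor component, was at 29.2, 41.6 and 41.2 against 53.7, 46.4 and 64.0 FPKM, without overlap. Vdr, the vitamin D receptor, overlapped at 58.5, 174 and 130 against 139, 184 and 125 FPKM.

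The phase differences were set against those of stomach, the neighbouring part of the gut, with an interaction of tissue and phase in limma over 12990 genes. Only Fkbp5 passed, which is 0.0077% of the genes tested. Its level in stomach was 9.94, 10.1 and 11.6 FPKM in estrus and 15.0, 9.43 and 12.8 FPKM in diestrus, and these groups overlapped. The phase difference in duodenum exceeded that in stomach by 2.53 log2 units (SE 0.27, adjusted p = 0.021). With 1 library left out at a time the term stayed between 2.40 and 2.70, and its adjusted p was at most 0.05 in 5 of 12 such fits. The study dissected all tissues from 3 mice per phase, so the libraries of both tissues are not independent, and the labels do not say which belong to 1 mouse. The adjusted p was 0.49 with the replicate number as a block within each tissue. It was 0.21 with libraries of the same phase and number taken as 1 mouse, a fit added after the results were seen, and neither block called any gene.

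Of 16 tested fibroblast and endothelial genes, 5 had an unadjusted p under 0.05 with lower levels and 0 with higher levels, against 11.2% and 2.29% of all genes. The lower count was 10 of 15 without estrus replicate 1 (28.5% of all genes) and 2 without estrus replicate 3. Leaving out diestrus replicate 1, 2 or 3 gave 0, 0 and 3 genes. Col3a1, a fibrillar collagen, was at 18.2, 6.68 and 12.9 against 22.7, 23.8 and 20.8 FPKM, a log2 fold change of -0.88. Other genes with large separations belong to no list. Cps1, which starts the urea cycle, was at 25.5, 40.1 and 122 against 213, 144 and 168 FPKM, and Clca3b, a secreted regulator of chloride channels, at 22.0, 10.6 and 105 against 311, 194 and 199 FPKM. Their log2 fold changes were -1.76 for Cps1 and -2.92 for Clca3b. Estrus replicate 3 was nearest to the diestrus group for both.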

How the data were processed

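RNA of 6 duodenum pieces, 3 in estrus and 3 in diestrus, was sequenced by the study on the BGISEQ-500. The authors filtered reads, aligned them with Bowtie2 2.2.5 to GRCm38.p5 and estimated levels with RSEM 1.2.8, and the deposited values are FPKM with no counts. Entrez identifiers were named through RefSeq (20265 of 20414 matched). Depth was approximated from the steps between low values of 1048 short genes as 13600000 to 17200000 reads per library. Only 62.5% to 70.2% of those values were whole reads within 0.2, so counts were not recovered.

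Genes averaging 1 FPKM or more were tested on log2(FPKM + 1) by limma 3.58.1 (R 4.3.3) with an intensity trend, two-sided. Called genes changed by 1 log2 unit or more with a Benjamini-Hochberg adjusted p of 0.05 or less. In simulated data with 200 changed genes, the fit called 40.5% of them at a log2 change of 1.5 and 90.5% at 3. False calls numbered 1 and 7. The simulation gave both phases the same spread per gene, unlike the data. The members and the 39 gene lists were chosen with earlier results of these data known. Genes were named by rules on fold change, non-overlap, list level, hormone or clock role and library extremes, and 16 of the 56 genes followed across the alternatives, and some overlapping ones, were named after their values were seen. Mx1, Mx2, Fdcsp and 6 immunoglobulin genes were not analysed here, and a few other genes are not reported here. Alternatives were another pseudocount, filter, scaling or weighting, a fit of all 90 libraries, a replicate block and left-out libraries. Leaving out estrus replicates 1 and 2 together, and the mouse block of the stomach comparison, were added after seeing the data, and the lone estrus library is then assumed to vary like the diestrus group.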

Additional observations from a re-analysis of the deposited data

Results flagged for a closer look

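Fkbp5 was the single gene whose phase difference differed between duodenum and stomach by the interaction test of limma. The difference in duodenum exceeded that in stomach by 2.53 log2 units, with all 3 duodenum estrus libraries above all 3 diestrus libraries and overlapping groups in stomach. The adjusted p was 0.021, it ranged from 0.0092 to 0.49 over the 16 alternatives, and it was at most 0.05 in 7 of them. The highest value came from the fit with the replicate number as a block within each tissue, and with same-numbered libraries of a phase taken as 1 mouse it was 0.21. Groups of 3 libraries are too small for a test of single outlying samples.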

How the results depend on the processing

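The 56 genes followed across the alternatives all kept their direction under every alternative in which they were tested. In all of them the phases did not overlap, so left-out libraries or another pseudocount, filter or weighting could not reverse them. Only rescaling the libraries could have done so, and the kept direction is little sign of stability. The count of called genes varied between alternatives. Array quality weights gave 202 higher and 60 lower genes (1364 and 4625 at an unadjusted p under 0.05). The weights were 0.106, 0.185 and 13.8 in estrus and 1.34, 1.47 and 1.86 in diestrus. The estrus level in that fit thus rests almost wholly on estrus replicate 3, and its counts stand for little more than 1 estrus library. A fit of all 90 libraries, whose spread comes from 15 tissues, gave 255 and 288 (877 and 2973). Equal upper quartiles moved the counts at an unadjusted p under 0.05 to 558 higher and 851 lower, and quantile normalization to 726 higher. Leaving out 1 library gave 0 to 10 higher and 0 to 1 lower calls, 109 to 702 higher and 286 to 3437 lower genes at an unadjusted p under 0.05. The 10 came without estrus replicate 1. The lowest counts came without diestrus replicate 1. Without estrus replicates 1 and 2 there were 17 higher and 2 lower calls and 563 higher genes at an unadjusted p under 0.05.

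Same-numbered libraries did not deviate together (r of -0.035 to 0.063 over genes). The replicate block left 0 calls in either direction (320 higher and 1211 lower at an unadjusted p under 0.05). In the comparison with stomach it left 0 calls, as did the block by phase and number. Without a block, leaving out 1 library in that comparison gave 0 to 142 calls, the 142 without stomach estrus replicate 2.

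Leaving out 1 library moved these list medians (log2) beyond the spread of replicates: steroid receptors -0.48 to 0.034, vitamin A handling -0.37 to -0.044, bile acid genes -0.27 to 0.44, tuft cell genes -0.26 to 0.052, follicle genes 0.55 to 1.38, enteric neuron genes -0.67 to -0.054 and pancreatic acinar genes -0.95 to 0.72. Other medians moved as far or farther, but within the wide spread of the estrus libraries: Brunner gland and gastric genes -0.21 to 4.57, smooth muscle genes -1.02 to 0.29 and brush-border enzymes -0.35 to 0.97. Without estrus replicates 1 and 2 the medians were 0.047 for vitamin A handling, 0.66 for follicle genes and -0.59 for interferon-stimulated genes. The cause was not tested. Depth limits genes near 1 FPKM most, and 3 libraries per phase limit every call.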
